A study of Mus musculus with 4 samples.

Results

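Monocytes, macrophages and the phagocyte functions they carry were followed in the kidney through 40 genes, taken by gene name from a table of 54078 genes. The genes were the lineage factor, growth factor and receptor of these cells, general leukocyte and macrophage markers, monocyte genes, Fc receptors, subunits of the phagocyte NADPH oxidase, scavenger and lectin receptors, receptors of tissue-resident macrophages, and 2 receptors for dying cells. The genes were found by name alone, from a list drawn up with earlier results of these data known. RNA-seq had been run on kidneys of male mice lacking Apela, which encodes the peptide hormone ELA, in the renal tubule, taken at day 3 after both kidneys had been clamped for 30 min and reperfused (bilateral I/R). Each of the 2 groups had 2 libraries, and each library was a pool of RNA from 3 mice.

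The WT group consisted of littermates with floxed Apela alleles and no Cre, and the ApelaKsp KO group carried the same floxed alleles with Cre under the Ksp-cadherin promoter, which is active in tubular epithelium. Monocytes and macrophages are not cells in which that promoter is known to be active. All mice were adult, the groups were matched for age and sex, and the age itself was not given. The label gives the strain as C57BL/6 x 129S4/SvJae, while the study's methods give C57BL/6. Every pool had undergone I/R, and uninjured kidneys were not analysed here. A sentence of the series' design text names adipose tissue. The title and sample labels name kidney, and the levels fit a kidney: Slc34a1, the phosphate transporter of the proximal tubule, was listed at 898, 689, 365 and 609 FPKM in WT replicates 1 and 2 and KO replicates 1 and 2, while Adipoq, the adipocyte hormone adiponectin, was at 0, 0, 0 and 0.268 FPKM. The adipose list summed to 1.43, 0.312, 8.27 and 3.19 FPKM, most of it Cidec, a lipid droplet gene. FPKM are read fragments scaled to the length of the transcript and to a size set for each library, so they compare levels between genes as well as between pools. Values of the 4 pools are given below in the same order.

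Blood monocytes enter the kidney after ischemia and mature there into macrophages, which clear dead tubular cells, produce reactive oxygen and cytokines, and later take part in repair. The transcription factor PU.1, the product of Spi1, sets up the whole lineage, and the growth factor CSF1, acting on its receptor CSF1R, keeps the cells alive. Macrophages that live in the kidney before the injury are known for scavenging receptors, whereas recently arrived monocytes carry Ly6C.

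The promoters of the genes are described first, because PU.1 is known for binding purine-rich boxes close to the start site of myeloid genes. RefSeq promoters of the GRCm38.p6 build, each reaching from 250 bases before the start site to 50 bases after it, were found for 30 of the 40 genes, as 38 windows. Adgre1, Cd14, Clec4n, Csf1r, Lilrb4a, Lyve1, Msr1, Ncf4, Spi1 and Tyrobp had no entry. The purine box AGAGGAAG, searched on both strands, was present in 9 of the 38 windows (23.7%), against 4.55% of all 32851 promoter windows of the same length. The box was chosen after the levels had been seen, and a match is a description of letters, not of binding. The promoters of 7 genes held it, and 100 bases of each are shown to show where the box lies in each of them; the capitals mark the box as AGAGGAAG, or as CTTCCTCT where it lies on the strand opposite to the gene.
Fcgr1, chr3:96293972-96294071, minus strand: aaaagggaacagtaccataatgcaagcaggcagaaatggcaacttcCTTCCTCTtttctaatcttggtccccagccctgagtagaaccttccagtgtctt
Fcgr3, chr1:171059357-171059456, minus strand: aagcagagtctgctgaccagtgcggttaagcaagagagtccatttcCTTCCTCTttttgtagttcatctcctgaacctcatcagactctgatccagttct
Fcgr4, chr1:171018857-171018956, plus strand: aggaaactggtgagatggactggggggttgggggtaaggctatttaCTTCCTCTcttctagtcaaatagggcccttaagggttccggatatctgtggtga
Laptm5, chr4:130913231-130913330, plus strand: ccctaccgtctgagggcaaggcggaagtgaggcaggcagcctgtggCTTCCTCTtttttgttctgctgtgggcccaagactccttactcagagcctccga
Mrc1, chr2:14229332-14229431, plus strand: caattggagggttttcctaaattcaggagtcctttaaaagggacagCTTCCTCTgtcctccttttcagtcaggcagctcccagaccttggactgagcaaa
Ly6c2, chr15:75111893-75111992, minus strand: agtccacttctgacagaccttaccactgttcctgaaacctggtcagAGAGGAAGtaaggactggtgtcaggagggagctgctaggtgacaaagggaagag
Marco, chr1:120505118-120505217, minus strand: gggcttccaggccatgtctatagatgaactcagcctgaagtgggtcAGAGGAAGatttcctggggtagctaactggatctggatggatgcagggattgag

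In Fcgr1 the first base of the box lay at -56 from the start site, in Laptm5 at -39, in Mrc1 at -36 and in Fcgr4 at -23. The box of Fcgr3 lay at -16 or -7 and that of Ly6c2 at -9 or 26, depending on which start site was taken, and that of Marco lay furthest upstream, at -147. Other boxes of this type were searched too: GAGGAAGT was in 3 windows (7.89% against 3.20% of all), AGAGGAAGT in 3 (7.89% against 1.00%) and GCGGAAGT in 1 (2.63% against 1.83%), and their letters overlap. For GAGGAAGT and for AGAGGAAGT the 3 windows came from the same 2 genes, Fcgr4 and Ly6c2. The ETS core GGAAGT, whose letters overlap those of the box, occurred in 14 of the 38 windows (36.8%) against 23.8% of all windows. A TATA sequence, TATAAA, occurred in 3 windows (7.89%) against 13.6%. Marco was nearly undetected, and Ly6c2 had too few reads to be tested. Genes with the box other than Marco were highest in WT replicate 2. So were 27 of the 34 tested genes of the list, with or without the box, and 29.1% of all genes tested. Nothing about the box is read from this, and the values of all 7 are given with their groups below.

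The 4 libraries held 16045724 to 16927742 reads on genes, so depth differed little between pools. Apela itself, the targeted gene, was at 5.27 and 4.57 FPKM in the WT pools and at 0.536 and 0.245 FPKM in the KO pools, from 85, 79, 9 and 4 reads, which fits the labels. No gene of the 15414 tested passed the threshold in limma on log2(FPKM + 0.5), a test with Benjamini-Hochberg adjustment whose smallest adjusted p was 0.466. Apela itself was not called, with that adjusted p and a log2 difference of -2.62 (unadjusted p = 0.000132, limma). A gene that was not called is therefore not shown to be unchanged. An unadjusted p under 0.05 was reached by 974 genes, 507 higher and 467 lower in KO. Voom weights on reads recovered from the FPKM also called 0 genes. With groups of 2 the smallest two-sided p that exact permutation of the labels allows is 0.333. WT replicate 2 stood apart from the other pools: it held the highest value of 29.1% of all genes and the lowest of 30.7%, and its mitochondrial share of reads was 5.20% against 5.67% to 6.45%. Differences of the 34 genes that could be tested are given below with and without it.

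Of the 40 genes, 39 had at least 1 read and 34 had a mean of at least 0.5 FPKM over the 4 pools and were tested. None of the 34 was called, where 0.00% of all genes tested were called. An unadjusted p under 0.05 was reached by 1 gene with higher values in KO, Cd163, and by 1 with lower values, Aif1, where 3.29% and 3.03% of all genes reached it. The difference between KO and WT on the log2 scale was below 0 in 26 of the 34 and above 0 in 8, against 48.6% of all genes below 0. Its median was -0.43, against 0.0071 over all genes tested. Without WT replicate 2 the same median was 0.066, with 15 genes below 0 and 19 above, and without WT replicate 1 it was -0.93, with 31 below and 3 above. An unadjusted p under 0.05 was then reached by 24 genes without WT replicate 1 (11.2% of all genes) and by 4 genes without WT replicate 2 (4.46%), which were Cd68, Lyz2, Ms4a6c and Fcgr3. Leaving out KO replicate 1 gave 3 genes (4.72%) and leaving out KO replicate 2 gave 0 (5.05%), and limma called 0 after adjustment in each of these fits. The direction of the group as a whole therefore depended on which WT pool was kept, and a smaller number of cells in a pool and less RNA per cell cannot be told apart in whole-kidney RNA.

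**Figure D1:**
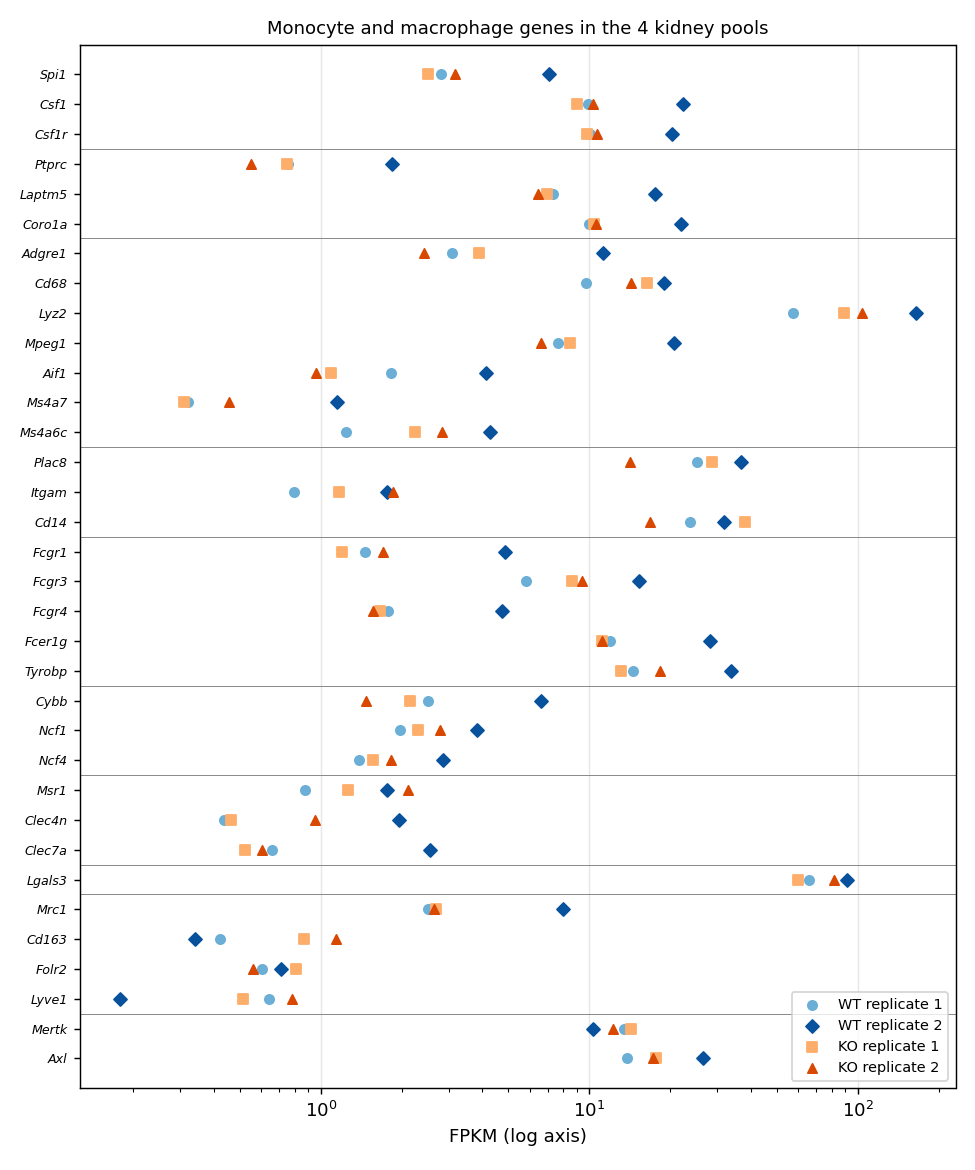
Level of each of the tested genes in each of the 4 pools, on a log axis of FPKM, with genes grouped by role (WT replicates 1 and 2, KO replicates 1 and 2). WT replicate 2 holds the highest value in 27 of the 34 genes, and both KO pools lie between the WT pools in 10.

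The pattern shared by most of these genes lay between the 2 WT pools. WT replicate 2 held the highest value of the 4 pools in 27 of 34 genes, against 29.1% of all genes tested. It was at least 2-fold above WT replicate 1 in 24 of 34, against 3.76% of all genes, and the median ratio of the 2 WT pools was 2.29 against 0.996. The KO pools were much closer to each other, with a median ratio of 1.09. Clec4n was at least 2-fold higher in KO replicate 2, and Cd14 and Plac8 were at least 2-fold higher in KO replicate 1. The median absolute gap on the log2 scale was 1.05 for WT and 0.248 for KO, where all genes had 0.196 and 0.172. The gap between the WT pools was larger than the difference between the genotype means in 31 of the 34 genes, and in 9177 of all 15414 genes tested. The highest value lay in KO replicate 1 in 3 genes and in KO replicate 2 in 4 (25.0% and 25.2% of all genes), and in WT replicate 1 in 0 (20.7%). The lowest lay in WT replicate 1 in 12 genes (22.2% of all genes), in KO replicate 1 in 9 (23.3%), in KO replicate 2 in 10 (23.7%) and in WT replicate 2 in 3 (30.7%).

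**Figure D2:**
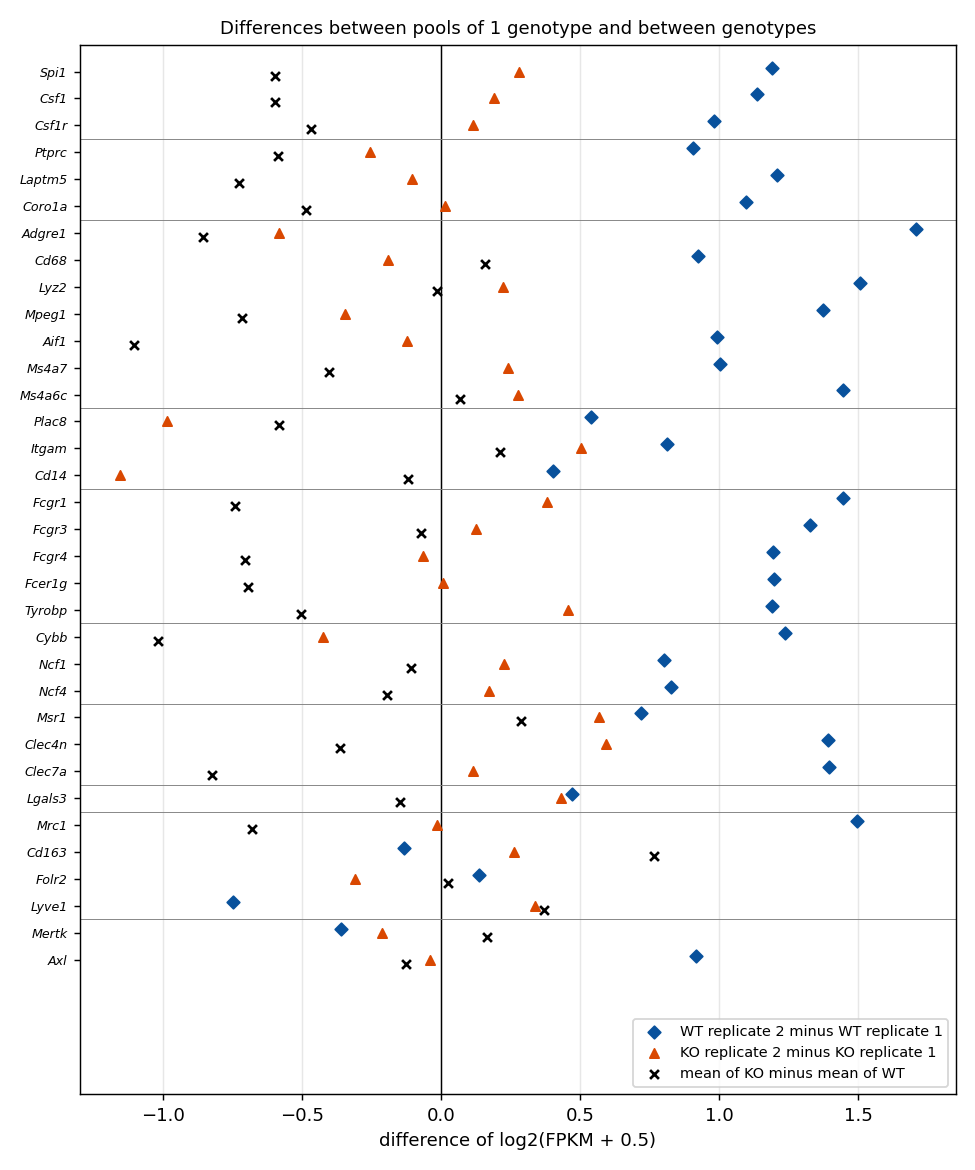
Differences of log2(FPKM + 0.5) for each tested gene: WT replicate 2 minus WT replicate 1 (diamonds), KO replicate 2 minus KO replicate 1 (triangles) and KO mean minus WT mean (crosses). The diamonds lie furthest from 0 in most genes, with a median absolute gap of 1.05, against 0.248 for the triangles.

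Other cell types were read beside this gap. The 5 fibroblast genes (Pdgfrb, Col1a1, Col3a1, Dcn and Lum) were likewise all highest in WT replicate 2, with summed levels of 109, 223, 131 and 148 FPKM. B cell genes summed to 4.11, 8.80, 2.13 and 1.75 FPKM, and T cell genes to 1.81, 3.88, 1.92 and 1.54 FPKM. Among the latter, the CD3 chain gene Cd3e was at 0, 0.0427, 0 and 0 FPKM, and the T cell receptor gene Trac at 0.266, 1.06, 0.959 and 0.395 FPKM. NK cell genes summed to 0.789, 1.48, 0.415 and 0.396 FPKM and none of them was abundant enough to be tested. Neutrophil genes summed to 11.0, 22.0, 11.4 and 29.1 FPKM. Of the 5 tested, S100a9, Cxcr2 and Mmp9 were highest in WT replicate 2, and S100a8 and Retnlg in KO replicate 2, with Ly6g, Mpo, Elane and Camp at 0 in every pool. Dendritic cell genes differed less, at 3.85, 5.43, 3.71 and 3.23 FPKM. Proximal tubule genes summed to 1452, 1093, 803 and 1220 FPKM, endothelial genes to 147, 167, 214 and 219 FPKM, tubular injury genes to 1034, 1159, 1238 and 1071 FPKM and red blood cell genes to 128, 126, 64.6 and 179 FPKM. Of the 6 proximal tubule genes, 5 had a difference below 0, and all 6 endothelial genes had one above 0. Both KO pools lay below both WT pools in 4 of the 6 proximal tubule genes and 2 of the 5 fibroblast genes, against 18.1% of all genes. Slc22a6, a proximal tubule gene, went the other way, at 233, 141, 236 and 383 FPKM (log2 difference 0.73). Of the lower genes, those with an unadjusted p under 0.05 (limma) were Slc5a2 (log2 difference -0.65), Lrp2 (-0.38) and Dcn (-0.78). Their unadjusted p were 0.0276, 0.0390 and 0.0356 (limma), and none was called after adjustment. Among these lists, Ighm, the IgM heavy chain, was at 3.07, 7.30, 1.24 and 1.04 FPKM (unadjusted p = 0.00966, limma). Plvap, an endothelial protein, was at 103, 110, 161 and 152 FPKM (unadjusted p = 0.0114, limma), and Lcn2, which encodes the injury marker NGAL, at 133, 95.2, 249 and 273 FPKM (unadjusted p = 0.00299, limma), with none of the 3 called after adjustment. The tubular injury genes had no single direction: 3 of the 6 were lower in the KO mean, among them Vcam1, an adhesion molecule gene, at 14.6, 31.0, 10.5 and 2.59 FPKM (log2 difference -1.91, unadjusted p = 0.0459, limma). Summed over the 40 genes described here the level was 313, 632, 370 and 375 FPKM, so the KO pools were 1.18-fold and 1.20-fold above WT replicate 1, and WT replicate 2 was 2.02-fold above it. Lyz2, the most abundant of them at 57.5, 164, 89.2 and 104 FPKM, made up most of the KO excess over WT replicate 1. The part of these other cell types in the gap was not tested.

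**Figure D3:**
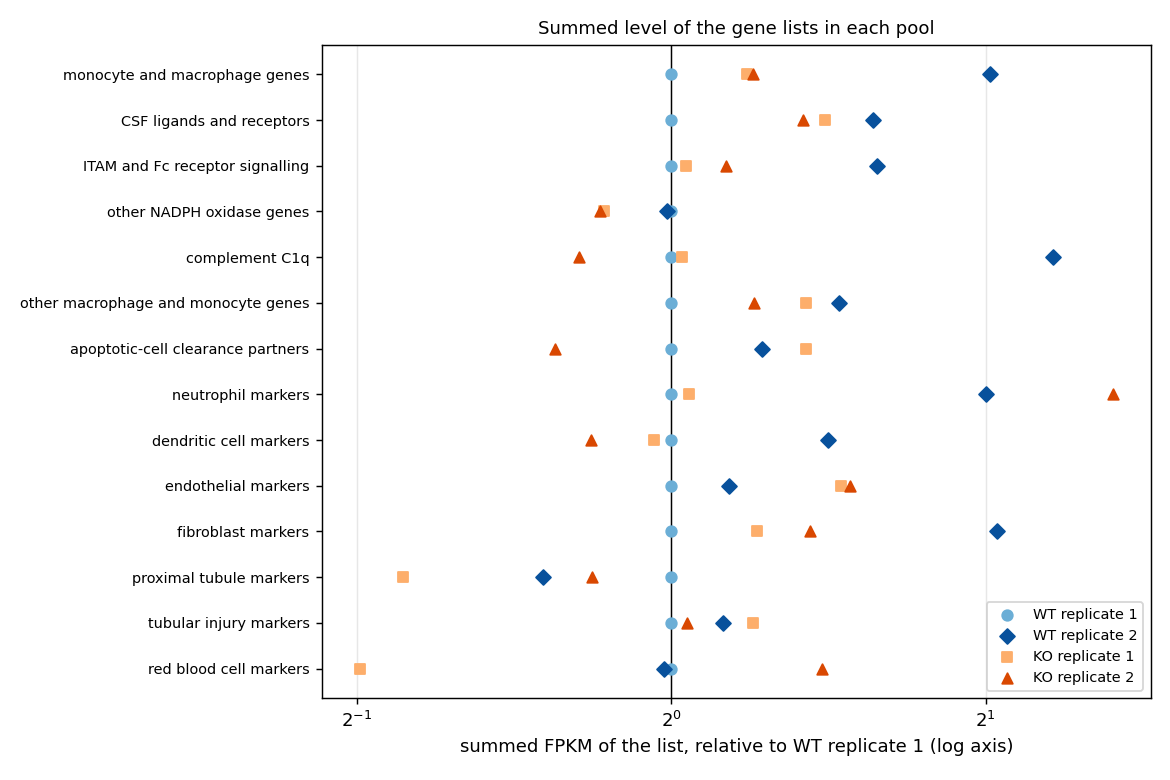
Summed FPKM of each list of genes in each pool, relative to WT replicate 1 (log axis of fold). The monocyte and macrophage genes have their highest sum in WT replicate 2, at 2.02-fold. So do the complement C1q (2.32-fold), fibroblast, ITAM signalling, CSF ligand and receptor, other macrophage and monocyte, and dendritic cell lists. The neutrophil genes have theirs in KO replicate 2, although 3 of the 5 tested are highest in WT replicate 2.

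Among the genes that set up and maintain the lineage, Csf1r, the receptor for CSF1, was at 10.1, 20.4, 9.83 and 10.7 FPKM. Its ligand gene Csf1 was at 9.86, 22.3, 9.01 and 10.4 FPKM. Spi1, which encodes PU.1, was at 2.82, 7.07, 2.51 and 3.15 FPKM. In all 3 the KO pools lay next to WT replicate 1, one of them just below it and the other just above, and WT replicate 2 stood 2.02-fold to 2.51-fold over WT replicate 1. The log2 differences of KO from WT were -0.47 for Csf1r (SE 0.34), -0.60 for Csf1 (SE 0.39) and -0.60 for Spi1 (SE 0.42), with adjusted p of 0.830, 0.816 and 0.827 by limma. Without WT replicate 2 they were 0.025, -0.028 and -0.0010. Il34, the other ligand of CSF1R and a product of tubular cells, was at 29.5, 44.7, 43.5 and 41.8 FPKM, so the low value there was WT replicate 1. Of the receptors for other colony-stimulating factors, Csf2ra was at 12.6, 19.0, 16.4 and 14.5 FPKM and Csf3r at 1.24, 3.41, 1.47 and 1.76 FPKM. None of the 4 tested genes of this list was called.

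Pan-leukocyte genes were also highest in WT replicate 2. Ptprc, which encodes the CD45 phosphatase of all leukocytes, was at 0.754, 1.85, 0.751 and 0.548 FPKM. Laptm5, a lysosomal membrane protein of blood cells whose promoter is printed above, was at 7.36, 17.6, 6.99 and 6.47 FPKM. Coro1a, an actin regulator of leukocytes, was at 10.02, 22.0, 10.4 and 10.6 FPKM. Both KO pools lay below both WT pools in Ptprc and Laptm5, although WT replicate 1 and KO replicate 1 nearly coincided in Ptprc, and the KO pools of Coro1a lay between the WT pools. The differences were -0.58, -0.72 and -0.48 on the log2 scale, with adjusted p of 0.804, 0.798 and 0.839 by limma. Without WT replicate 2 they were -0.13, -0.12 and 0.065.

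The 7 pan-macrophage markers were all highest in WT replicate 2, and differed in where the KO pools lay. Lyz2, the lysozyme of myeloid cells and the most abundant of the 40 genes, was at 57.5, 164, 89.2 and 104 FPKM. Cd68, a lysosomal glycoprotein of macrophages, was at 9.75, 19.0, 16.4 and 14.3 FPKM. Ms4a6c, a membrane protein gene of the MS4A family, was at 1.24, 4.25, 2.25 and 2.82 FPKM. In these 3 genes both KO pools lay between the WT pools, well above WT replicate 1. The KO to WT differences were near 0, at -0.01 for Lyz2 (SE 0.52), 0.16 for Cd68 (SE 0.33) and 0.07 for Ms4a6c (SE 0.50), and without WT replicate 2 they were 0.74, 0.62 and 0.79, with unadjusted p of 0.0179, 0.0223 and 0.0286 (limma) and none called after adjustment.

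Adgre1, which encodes F4/80, the classical macrophage surface marker of the mouse, was at 3.09, 11.2, 3.89 and 2.43 FPKM. Mpeg1, the pore-forming protein of macrophages, was at 7.65, 20.6, 8.51 and 6.59 FPKM. Ms4a7, another MS4A gene, was at 0.321, 1.15, 0.309 and 0.456 FPKM. Here the KO pools lay on either side of WT replicate 1, and the ratio of the WT pools was 3.63 for Adgre1. The differences were -0.85 for Adgre1, -0.72 for Mpeg1 and -0.40 for Ms4a7, and -0.00092, -0.028 and 0.099 without WT replicate 2. Leaving out WT replicate 1 gave -1.71, -1.40 and -0.91. Aif1, which encodes the actin-bundling protein IBA1 and lies on chr17:35170991-35176068 (mm10), was at 1.83, 4.14, 1.09 and 0.965 FPKM, from 45, 109, 28 and 24 reads. Both KO pools were below both WT pools, the mean being 1.03 ± 0.0904 FPKM in KO and 2.98 ± 1.63 FPKM in WT (SD, n = 2 pools). The log2 difference was -1.10 (SE 0.36, adjusted p = 0.785 by limma), and it was -0.61 without WT replicate 2. Of all 34 tested genes Aif1 had the lowest value of that difference.

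**Figure D4:**
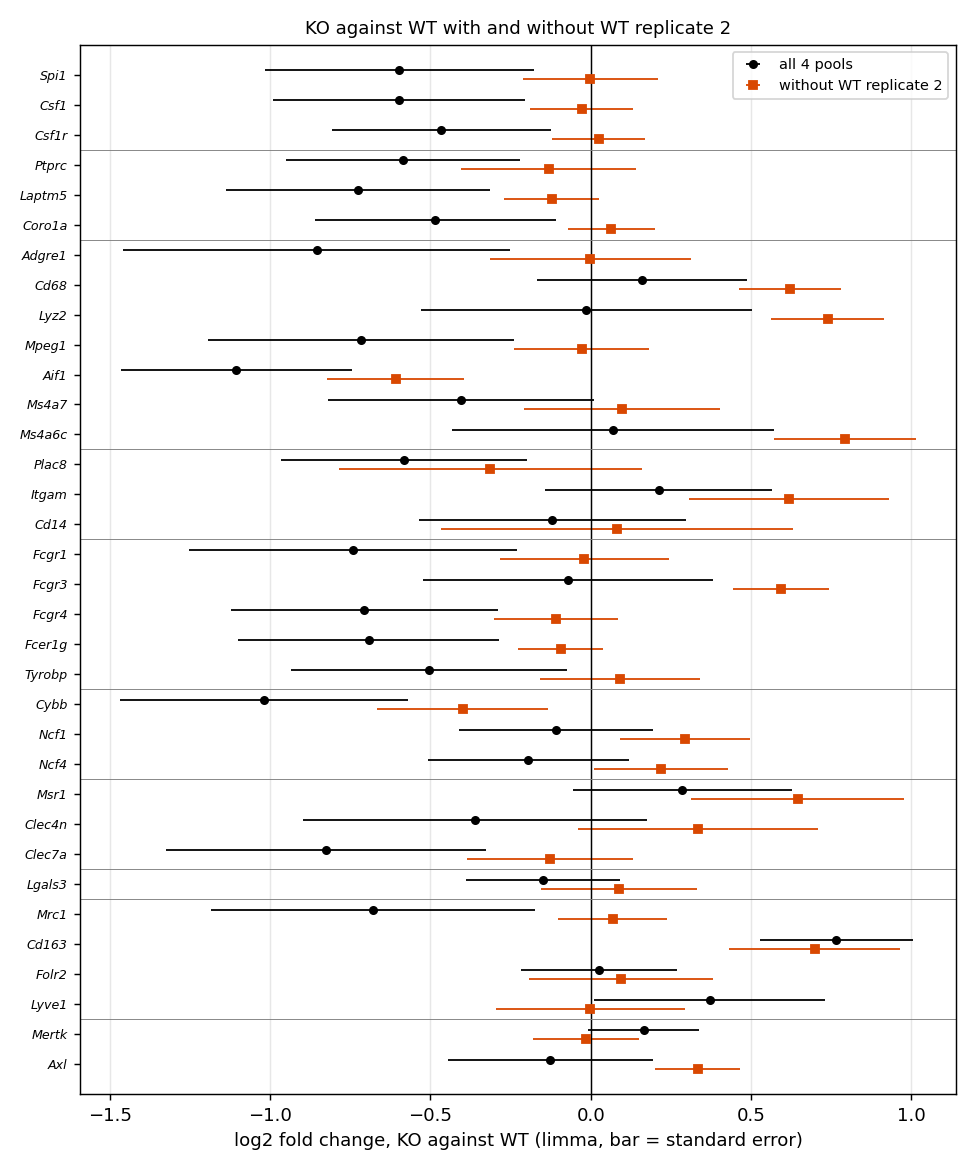
Difference of KO from WT in log2(FPKM + 0.5) for each tested gene, with all 4 pools and without WT replicate 2 (bars, standard error from limma). Aif1 has the lowest value, -1.10, and Cd163 the highest, 0.76, and the median moves from -0.43 to 0.066 when WT replicate 2 is left out.

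Monocyte genes were low or mixed. Ly6c2, which encodes the Ly6C antigen of inflammatory monocytes, was below the limit for testing, with 11, 36, 7 and 11 reads; 33.0% of its 50-base windows also occur in transcripts of other genes, among them Ly6c1. Itgam, the CD11b integrin chain, was at 0.793, 1.77, 1.17 and 1.86 FPKM. Cd14, the lipopolysaccharide co-receptor, was at 23.8, 31.7, 37.9 and 16.8 FPKM, and Plac8, a cysteine-rich protein gene of myeloid cells, was at 25.2, 36.8, 28.6 and 14.2 FPKM. In Cd14 and Plac8 the 2 KO pools lay furthest apart, with KO replicate 2 lowest of the 4 pools in both and KO replicate 1 highest in Cd14. Itgam, in contrast, was highest in KO replicate 2. The differences were 0.21 for Itgam, -0.12 for Cd14 and -0.58 for Plac8, with adjusted p of 0.925, 0.967 and 0.816 by limma. Without WT replicate 2 they were 0.62, 0.082 and -0.31. Cd14 and Plac8 depended on the KO pool kept, with -0.70 and -1.07 when KO replicate 1 was left out and 0.46 and -0.090 when KO replicate 2 was.

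Fc receptors bind the constant part of antibodies and signal through adaptors with an ITAM motif. Fcgr1, the high-affinity IgG receptor, was at 1.47, 4.85, 1.20 and 1.71 FPKM. Fcgr4, Fcgr3 and Fcer1g all lie on chromosome 1. Fcgr4 was at 1.78, 4.72, 1.67 and 1.57 FPKM, Fcgr3 at 5.81, 15.3, 8.61 and 9.44 FPKM, and Fcer1g, the common gamma chain, at 12.0, 28.1, 11.1 and 11.2 FPKM. Both KO pools were below both WT pools in Fcgr4 and Fcer1g, whereas in Fcgr3 they were between them. The differences were -0.71, -0.69 and -0.07 on the log2 scale in the order Fcgr4, Fcer1g and Fcgr3 (SE 0.42, 0.41 and 0.45), and -0.11, -0.094 and 0.59 without WT replicate 2. That of Fcgr1 was -0.74, and -0.019 without that pool. The box printed above is present in the promoters of Fcgr1, Fcgr3 and Fcgr4 alike. Tyrobp, which encodes the adaptor DAP12, was at 14.6, 33.8, 13.2 and 18.3 FPKM, with a difference of -0.50 (SE 0.43, adjusted p = 0.853 by limma), and 0.090 without WT replicate 2. All 11 tested genes of the ITAM signalling list were highest in WT replicate 2, and 10 of the 11 had a difference below 0, with a median of -0.15. Without WT replicate 2 the median was 0.15, with 8 above 0 and 3 below. The most abundant of them, Ptpn6, a phosphatase that restrains ITAM signals, was at 10.5, 14.4, 10.5 and 11.6 FPKM, and the kinase Lyn at 6.37, 9.55, 7.71 and 6.97 FPKM.

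The phagocyte NADPH oxidase produces superoxide in the phagosome. Cybb, its catalytic subunit, was at 2.52, 6.62, 2.15 and 1.47 FPKM. The cytosolic subunit genes were Ncf1, at 1.97, 3.81, 2.30 and 2.77 FPKM, and Ncf4, at 1.39, 2.85, 1.57 and 1.83 FPKM. Both KO pools of Cybb were below both WT pools, with a difference of -1.02 (SE 0.45, adjusted p = 0.797 by limma), while those of Ncf1 and Ncf4 lay between the WT pools, with -0.11 and -0.20. Without WT replicate 2 the difference was -0.40 for Cybb, 0.29 for Ncf1 and 0.22 for Ncf4, and without WT replicate 1 it was -1.64 for Cybb. Among oxidase genes outside the list, the partner subunit Cyba was at 341, 337, 303 and 292 FPKM and Nox4, an oxidase of tubular cells, at 36.0, 31.0, 21.3 and 29.9 FPKM, levels well above those of Cybb. The GTPase Rac2 was at 2.43, 6.56, 2.60 and 1.91 FPKM, highest in WT replicate 2.

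Msr1, the scavenger receptor that takes up modified lipoproteins, was at 0.873, 1.76, 1.26 and 2.12 FPKM, with KO replicate 2 highest. The lectin receptor genes were highest in WT replicate 2: Clec7a, which encodes the beta-glucan receptor dectin-1, was at 0.660, 2.56, 0.521 and 0.607 FPKM, and Clec4n, which encodes dectin-2, at 0.438, 1.96, 0.463 and 0.954 FPKM. Both KO pools of Clec7a were below both WT pools, with a difference of -0.82 (SE 0.50, adjusted p = 0.803 by limma), and of -0.13 without WT replicate 2. The differences of Msr1 and Clec4n were 0.29 and -0.36, and 0.65 and 0.34 without that pool. Marco, a scavenger receptor for bacteria, had 0, 1, 4 and 3 reads.

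Lgals3, the lectin galectin-3 and the second most abundant of the 40 genes, was at 65.7, 91.2, 60.1 and 81.2 FPKM, with a KO mean of 70.7 ± 14.9 FPKM against 78.5 ± 18.0 FPKM in WT (SD, n = 2 pools). Its pools overlapped, with a difference of -0.15, or 0.088 without WT replicate 2, and injured tubular cells express this gene too. Trem2, a receptor of lipid-associated macrophages, had 2, 34, 6 and 0 reads, and Gpnmb, a lysosomal glycoprotein of the same cells, had 30, 98, 16 and 50 reads. A count of 0 reads allows up to 3. Lilrb4a, an inhibitory receptor gene, was listed at 0 in every pool. All of its 50-base windows (100%) also occur in transcripts of other entries at the locus, and 1 entry there on the same strand, Lilrb4, was at 0.714, 2.47, 0.801 and 0.872 FPKM, again highest in WT replicate 2.

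The receptors of tissue-resident macrophages were mixed. Mrc1, the mannose receptor, was at 2.52, 8.01, 2.68 and 2.65 FPKM, with the KO pools at WT replicate 1 and a difference of -0.68, or 0.068 without WT replicate 2. Cd163, the receptor for haemoglobin and haptoglobin complexes, on chr6:124304656-124330527, was at 0.422, 0.341, 0.865 and 1.14 FPKM, from 37, 32, 79 and 101 reads. The KO pools both exceeded the WT pools, at 1.00 ± 0.194 against 0.381 ± 0.0572 FPKM (mean ± SD, n = 2 pools each). The log2 difference was 0.76 (SE 0.24, adjusted p = 0.785 by limma), and it was 0.70 without WT replicate 2.

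Cd163, Lyve1 and Mertk were the 3 tested genes with their lowest value in WT replicate 2, where 30.7% of all genes had it. Lyve1, a hyaluronan receptor found on perivascular macrophages and on lymphatic vessels, was at 0.639, 0.179, 0.512 and 0.781 FPKM, with a difference of 0.37, or -0.0013 without WT replicate 2. Folr2, the folate receptor of resident macrophages, was at 0.604, 0.714, 0.812 and 0.558 FPKM, with overlapping pools and a difference of 0.025, or 0.094 without that pool. Timd4, a receptor for phosphatidylserine, had 1 read, in KO replicate 2.

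The TAM receptors recognise dying cells through bridging proteins. Mertk was at 13.4, 10.3, 14.3 and 12.3 FPKM and had the smallest ratio of highest to lowest pool among the 13 genes with a mean of 10 FPKM or more, with a difference of 0.16 (SE 0.17, adjusted p = 0.872 by limma), or -0.016 without WT replicate 2. Axl was at 13.8, 26.6, 17.8 and 17.3 FPKM, with a difference of -0.13 (SE 0.32), or 0.33 without that pool. Their bridging ligand gene Gas6 was at 177, 204, 184 and 144 FPKM. Havcr1, the KIM-1 receptor by which injured tubular cells take up debris, was at 210, 393, 249 and 105 FPKM, and the scavenger receptor gene Cd36 at 160, 71.3, 301 and 146 FPKM, with KO replicate 1 highest. Mfge8, a bridging protein that binds phosphatidylserine, was at 37.2, 37.5, 58.4 and 49.1 FPKM, each KO pool being higher than either WT pool, with an unadjusted p of 0.0147 and none called after adjustment (limma).

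The order of levels spanned a wide range. Lyz2 and Lgals3 had means of 104 and 74.6 FPKM over the 4 pools, followed by Cd14 with 27.5, Plac8 with 26.2 and Tyrobp with 20.0 FPKM. In all, 13 tested genes had a mean of 10 FPKM or more, 15 had 1 to 10, and 6 had less than 1. Axl, Fcer1g, Cd68, Coro1a, Csf1, Csf1r, Mertk and Mpeg1 had means of 18.9 down to 10.8 FPKM, and neighbours in this order differed by less than the spread between the WT pools.

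By direction without overlap, both KO pools were below both WT pools in 7 of the 34 tested genes (Ptprc, Laptm5, Aif1, Fcgr4, Fcer1g, Cybb and Clec7a), where 18.1% of all genes were, and above both in 1, Cd163, where 19.7% were. The count of lower genes is near the background share, and that of higher genes is below it. Both KO pools lay between the WT pools in 10 of 34 genes, against 16.3%. Since the 7 lower genes include leukocyte genes, Fc receptor genes, an oxidase gene and a lectin receptor gene, they belong to no single role.

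Levels were also set against 3 cell markers in the same pool, a ratio chosen after the values had been seen. Per Csf1r, the KO pools both exceeded the WT pools in 10 of 33 genes (background 27.9%) and lay below them in 7 (background 1.69%). Per Adgre1 these counts were 9 (13.5%) and 0 (0.506%), and per Ptprc 14 (49.6%) and 2 (0.714%). Per Csf1r the Cd68 level was 0.969, 0.931, 1.66 and 1.33, and that of Msr1 was 0.0867, 0.0864, 0.128 and 0.198. For Cd163 it was 0.0419, 0.0167, 0.0880 and 0.107, 3.32-fold higher in the KO mean. For Aif1 it was 0.182, 0.203, 0.111 and 0.0902, a KO to WT ratio of 0.524. The same 8 genes, Axl, Cd163, Cd68, Fcgr3, Itgam, Lyz2, Ms4a6c and Msr1, were higher in both KO pools per Csf1r, per Adgre1 and per Ptprc (background 9.72%), and 0 were lower in all 3 (background 0.480%). The divisors were themselves higher in WT replicate 2 than in WT replicate 1, 2.02-fold for Csf1r, 3.63-fold for Adgre1 and 2.45-fold for Ptprc. Only 3.76% of all genes were at least 2-fold higher there. The background shares of the ratios therefore depend on the divisor, and no excess over them is read from the counts. No test was made of these ratios.

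**Figure D5:**
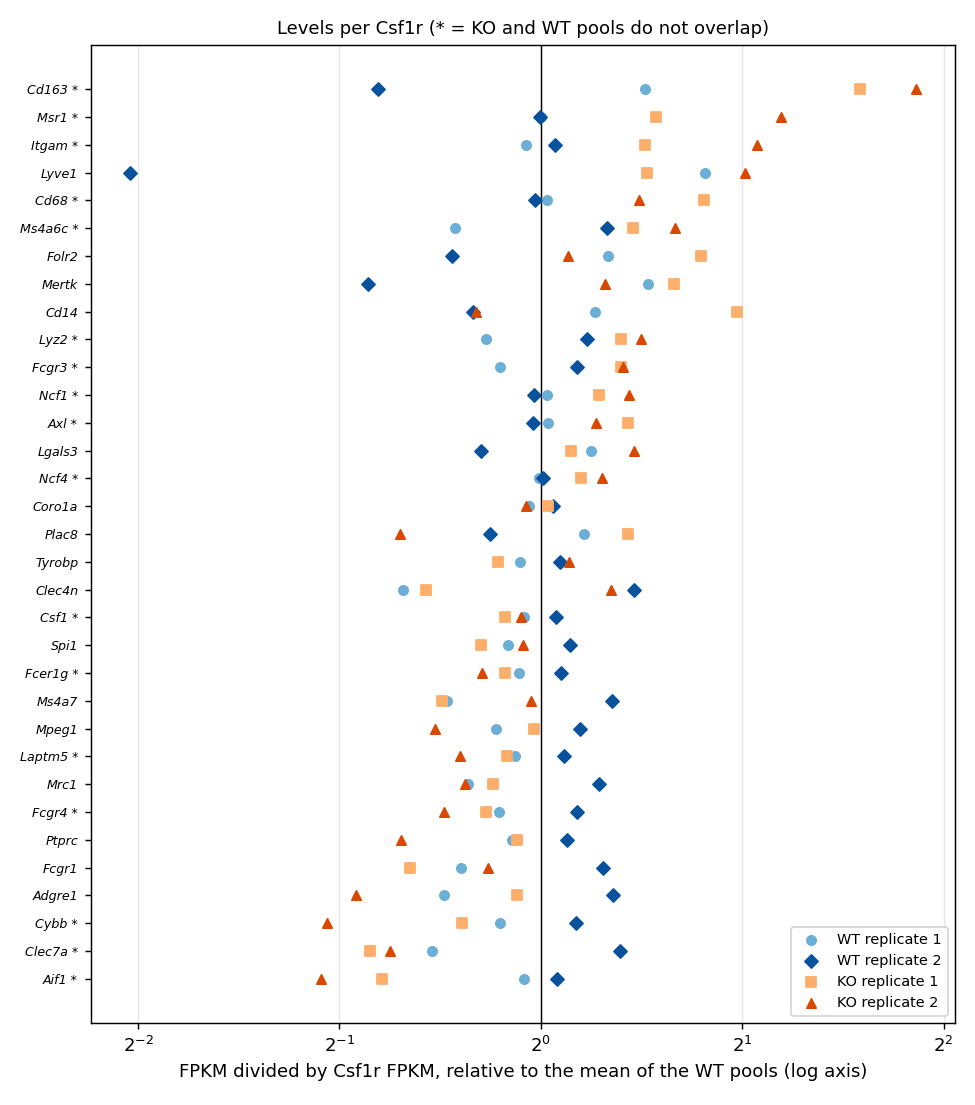
Level of each tested gene divided by that of Csf1r in the same pool, relative to the mean of the 2 WT pools, on a log axis, with an asterisk where the pools of the genotypes do not overlap. Cd163, Msr1, Itgam and Cd68 are higher in both KO pools than in both WT pools, and Aif1 and Cybb are lower.

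Genes of the same cells outside the 40 showed a like arrangement. Of 28 tested macrophage and monocyte genes, 25 were highest in WT replicate 2 and 24 had a difference below 0, with a median of -0.32, and of 0.072 without WT replicate 2. The complement subunit genes C1qa, C1qb and C1qc, which macrophages express strongly, were all highest in WT replicate 2, with a median difference of -0.79, or -0.16 without that pool. C1qa was at 38.7, 88.3, 43.1 and 33.3 FPKM and C1qb at 42.0, 103, 41.4 and 33.9 FPKM. Ctss, the lysosomal protease cathepsin S, was at 23.7, 54.1, 22.8 and 22.0 FPKM. Both KO pools were below both WT pools in 9 of the 28, where 18.1% of all genes were. Lst1, a leukocyte membrane protein gene, was at 2.55, 7.84, 1.73 and 0.742 FPKM, with a difference of -1.60 (unadjusted p = 0.0407, limma), or -0.87 without WT replicate 2. Tlr2, a receptor for bacterial lipoproteins, was at 6.44, 12.9, 5.04 and 1.90 FPKM, with -1.41 (unadjusted p = 0.0455, limma), or -0.93 without that pool. Apoe, the apolipoprotein, and Cebpb, a transcription factor of monocytes, were the 2 genes of the 28 with both KO pools higher (19.7% of all genes). Apoe was at 163, 208, 249 and 240 FPKM and Cebpb at 43.6, 47.5, 78.4 and 49.5 FPKM. None of these genes was called.

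Several values depend on how reads were assigned. The library was not stated to keep strand. Transcripts of other genes hold 56.9% of the 50-base windows of Ms4a6c, most of them in BE692007 on the opposite strand, and Gm10602, also opposite, holds 56.7% of those of Folr2. For Csf1r the opposite gene Hmgxb3 holds 17.7%. Itgam is listed under 2 gene entries, of which the one not used is at 0 in every pool, and 72.4% of its windows also occur in another transcript at the locus. Part of Lyz2, 15.4% of its windows, is shared with Lyz1, and of Fcgr3, 12.8% with Fcgr2b.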

How the data were processed

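Poly-A RNA of 4 kidney pools (3 mice each) was sequenced. The deposited table gives FPKM per gene, made by the authors from reads aligned with HISAT2 2.0.5 to mm10 (GRCm38.p6), per the submitters' processing notes. The counting tool and annotation were not given in the sources used here. The FPKM are normalized to transcript length and to a size per library whose source was not stated. In the 4 pools, 1 read on 1 kb stood for 0.0622, 0.0581, 0.0598 and 0.0616 FPKM. That value was smallest in WT replicate 2, which had the fewest reads on genes, so the size did not follow these reads. FPKM times length gave whole reads in every pool within 0.01, and these reads served for depth (16045724 to 16927742 per pool) and for voom only, since FPKM are not counts. Genes with a mean of at least 0.5 FPKM were compared between KO and WT with limma 3.58.1 (R 4.3.3) on log2(FPKM + 0.5) with a trend, two-sided, with Benjamini-Hochberg adjustment over 15414 genes and a threshold of 0.05. This pseudocount makes fold changes of low genes smaller than they are. The procedure was tested on simulated counts with known changes, whose spread was a set value and was not estimated from these pools. That check covers the working of the fits and not their power in these pools. The p-values measure the spread between pools, and the labels tie no pool of one genotype to a pool of the other. The rule for named genes took the 40 members, the 4 most abundant genes of each comparison list and, for the cell type lists, the first 2 genes as well, of which the text gives those that bear on a result and the rest through the sum or count of their list. Others were named after their values were seen, where a count needed it. A gene under this rule is not reported here. Members and lists were chosen with earlier results of these data known. Alternatives were another pseudocount (0.1 or 1), no filter or a stricter one (1 FPKM), quantile normalization, a replicate block, voom, and leaving out each pool. Promoter sequences are from RefSeq.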

Additional observations from a re-analysis of the deposited data

How the results depend on the processing

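No gene was called under any alternative with limma, and adjusted p of the 34 tested members ranged from 0.298 to 1.00. At an unadjusted p under 0.05, 974 genes and 2 of the members were counted, against 0 called. Voom gave 0 called and 946 at that level. The replicate block, added because the pools carry the same numbers, gave 0 called, 932 at an unadjusted p under 0.05 and a member median of -0.43. Deviations of same-numbered pools had a correlation of -0.0017 across genes, and the numbers were not taken as a pairing. Over the other alternatives the member median lay between -0.56 and -0.37, and leaving out each pool gave -0.93 to 0.066. Members whose pools do not overlap numbered 8 as measured (of all genes, 19.7% were higher and 18.1% lower), 17 per Csf1r (27.9% and 1.69%), 9 per Adgre1 (13.5% and 0.506%) and 16 per Ptprc (49.6% and 0.714%), ratios chosen after seeing the data. The background shares of the ratios depend on the divisor, which was highest in WT replicate 2 in each case. Folr2 turned to -0.036 with voom, which took the reads on genes as library size and so differed from the FPKM in scaling as well as in weights. When each pool was left out, the log2 difference changed sign in 20 genes, with these lowest and highest values: Axl (-0.59 to 0.33), Cd14 (-0.70 to 0.46), Cd68 (-0.30 to 0.62), Clec4n (-1.06 to 0.34), Coro1a (-1.03 to 0.065), Csf1r (-0.96 to 0.025), Fcgr3 (-0.74 to 0.59), Folr2 (-0.13 to 0.18), Itgam (-0.19 to 0.62), Lgals3 (-0.38 to 0.088), Lyve1 (-0.0013 to 0.75), Lyz2 (-0.77 to 0.74), Mertk (-0.016 to 0.35), Mrc1 (-1.43 to 0.068), Ms4a6c (-0.65 to 0.79), Ms4a7 (-0.91 to 0.10), Msr1 (-0.073 to 0.65), Ncf1 (-0.51 to 0.29), Ncf4 (-0.61 to 0.22) and Tyrobp (-1.10 to 0.090). It kept its sign in 14 genes: Adgre1 (-1.71 to -0.00092), Aif1 (-1.60 to -0.61), Cd163 (0.63 to 0.90), Clec7a (-1.52 to -0.13), Csf1 (-1.17 to -0.028), Cybb (-1.64 to -0.40), Fcer1g (-1.29 to -0.094), Fcgr1 (-1.46 to -0.019), Fcgr4 (-1.30 to -0.11), Laptm5 (-1.33 to -0.12), Mpeg1 (-1.40 to -0.028), Plac8 (-1.07 to -0.090), Ptprc (-1.04 to -0.13) and Spi1 (-1.19 to -0.0010). The cause was not tested. With 1 pool left in a group, that pool was assumed to vary like the others. Genes with few reads, such as Trem2 and Marco, were limited by depth.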
